A study of Homo sapiens with 3 samples.

Results

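In human keratinocytes treated with 1 of a pair of siRNAs against the splicing factor SRSF5, 119 genes stood at least 2-fold from the control while the other siRNA left them near it. The cells were HaCaT, an immortalized keratinocyte line labelled wild type, and the series title asks how knock-down of SRSF5 affects gene expression in them. They received a control siRNA, SRSF5 siRNA No. 1 (siRNA 1 here) or SRSF5 siRNA No. 2 (siRNA 2), each by lipid transfection at a final 10 nM. Neither the time between transfection and harvest nor any siRNA sequence is given in the sources used here. There were 3 libraries, 1 per group, and nothing in the labels says that a transfection was repeated. No difference below therefore has a replicate check, no test was made, and every value describes these libraries and not the conditions.

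The genes were selected on the measured values themselves. FPKM, which are fragments scaled to transcript length and library size, were summed over the transcripts of each gene. Of 60551 genes listed on chromosomes, 9877 had a mean sum of at least 5 over the 3 libraries and are called measured. Ratios are on the scale log2(summed FPKM + 1), siRNA over control, which understates differences of low genes. Members had a ratio of at least 1 or at most -1 under siRNA 1 and a ratio between -0.5 and 0.5 under siRNA 2. There were 119 members, 1.20% of the measured genes, and 38 were higher and 81 lower than the control. By the 2-fold limit alone, 154 measured genes (1.56%) stood above the control under siRNA 1 and 152 (1.54%) below it. Under siRNA 2 the same counts were 377 (3.82%) above and 335 (3.39%) below. Both ratios share the 1 control library, and the rule fixed the members' ratios, so their size is no finding.

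SRSF5 is an SR protein, a family of RNA-binding proteins that mark exons and help the spliceosome choose splice sites. A small interfering RNA guides an Argonaute protein to a fully matched mRNA, which is cut. The same guide can also lower other mRNAs whose 3′ untranslated region (3′ UTR) pairs with guide bases 2 to 8, the seed, much as a microRNA does. For this reason siRNAs of different sequence against 1 gene are commonly set side by side, since they share the target and not the seed.

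SRSF5, the target, was lower in both siRNA libraries. The summed FPKM of SRSF5 was 94.1 in the control, 44.3 under siRNA 1 and 18.7 under siRNA 2. These were 47.1% and 19.8% of the control, with ratios of -1.07 and -2.27 and counting standard errors of 0.13 and 0.17. SRSF5 was thus lower by more under siRNA 2, and it is not a member. The keratinocyte label was checked on 8 markers, of which 8 were measured, and their summed level was 4332 for the control, 5121 for siRNA 1 and 8051 for siRNA 2. None of the 8 fibroblast and 6 endothelial markers was measured, with summed levels of at most 6.44 and 3.71. Among 7 melanocyte markers MITF was measured, and TYR, TYRP1, MLANA and SOX10 were at 0 in every library. Among 8 immune markers CD68, a lysosomal protein found in other cells too, was measured, and the other 7 were below 1 in every library. The part of depth or cell makeup in the members' values was not tested. In bulk RNA, fewer cells of a kind and less RNA per cell cannot be told apart.

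Short sequences in the 3′ UTRs of the members are shown first, because some words of 7 bases were more frequent in the members than in measured genes in general. The most frequent by this excess in the lower members was ACCTAAA, called their word here, and the 9 windows that follow are all its sites in the carriers among the 15 lowest members. Each is written 5′ to 3′ on the transcript strand, with the word in capitals and 10 bases on either side, from GENCODE release 29 transcripts with GRCh38 positions.
FKBP1A (chr20:1369879-1369905, minus strand): atgtgtgtttACCTAAActatatgcca
FKBP1A (chr20:1369543-1369569, minus strand): taaaagccctACCTAAAactgaggtgg
USP14 (chr18:211428-211454, plus strand): ctgtgcaccaACCTAAAaaattacaga
USP14 (chr18:213015-213041, plus strand): tagcttcctcACCTAAActttgacttg
TRIAP1 (chr12:120444163-120444189, minus strand): tggaggaagaACCTAAAttgcaaagat
TMEM50A (chr1:25360845-25360871, plus strand): tcacgagaacACCTAAAcaacaaccaa
ANAPC13 (chr3:134478372-134478398, minus strand): cgctctttaaACCTAAAactcttcatt
SEPTIN2 (chr2:241352454-241352480, plus strand): tgtacacaacACCTAAAaccagttttg
IRX3 (chr16:54283558-54283584, minus strand): gtgtataaatACCTAAAagcaaaacta

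Of the 78 lower members with an annotated 3′ UTR, 37 (47.4%) held ACCTAAA there, against 958 of 9034 measured genes (10.6%). Of 33 higher members 3 held it (9.09%), and these were IL7R, IMPACT and SLC35A5. The word was also looked for in the genes that were at least 2-fold lower under siRNA 2 and within 0.5 of the control under siRNA 1, and 26 of those 238 held it (10.9%). The lower members' 3′ UTRs were longer than usual, with a median of 1491 bases against 1179. Per kilobase of 3′ UTR the word still occurred 0.302 times in the lower members against 0.0678 times over all measured genes. Among all 16384 words of 7 bases, 12770 were found in at least 200 of the 9034 3′ UTRs, and ACCTAAA had the largest excess in the lower members over all genes. The second was CCTAAAA, which overlaps it by 6 bases and was held by 33 lower members (42.3%, against 13.5%). Either word was present in 46 of 78 (59.0%), against 18.4%. A match of this kind is a description of letters and not a site of action.

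Over all measured genes, members included, the word went with lower ratios under siRNA 1. The 958 measured genes that carried ACCTAAA had a median ratio of -0.19 under siRNA 1, against -0.05 in the 8076 without it. With the members left out the medians were -0.17 in 918 carriers and -0.05 in 8005 other genes. With siRNA 2 the medians were 0.01 and 0.00 with the members included, and 0.02 and 0.00 with them left out. The difference of -0.13 under siRNA 1 was the lowest of the 12770 words. The word was picked by this too, and the excess in the lower members rests on the same ratios, so that rank is no separate finding. Under siRNA 2 the word ranked 549 from the low end, at 0.01. In the cumulative plot the siRNA 1 curves of carriers lie to the left of the others and the siRNA 2 curves run together. Genes with 1 site had a median ratio of -0.18 under siRNA 1 and genes with 2 sites -0.30, while the 24 genes with 3 or more were at -0.19. The order by number of sites was therefore not complete. Among genes with 1 site, those with an A right after the word were lowest, at -0.23 (297 genes), and those with a T there were at -0.13 (252 genes). By the base right before the word, those with an A were lowest too, at -0.21 (282 genes). Those with a C, G or T before it were at -0.14, -0.14 and -0.17. An A after the word also completes CCTAAAA.

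**Figure D1:**
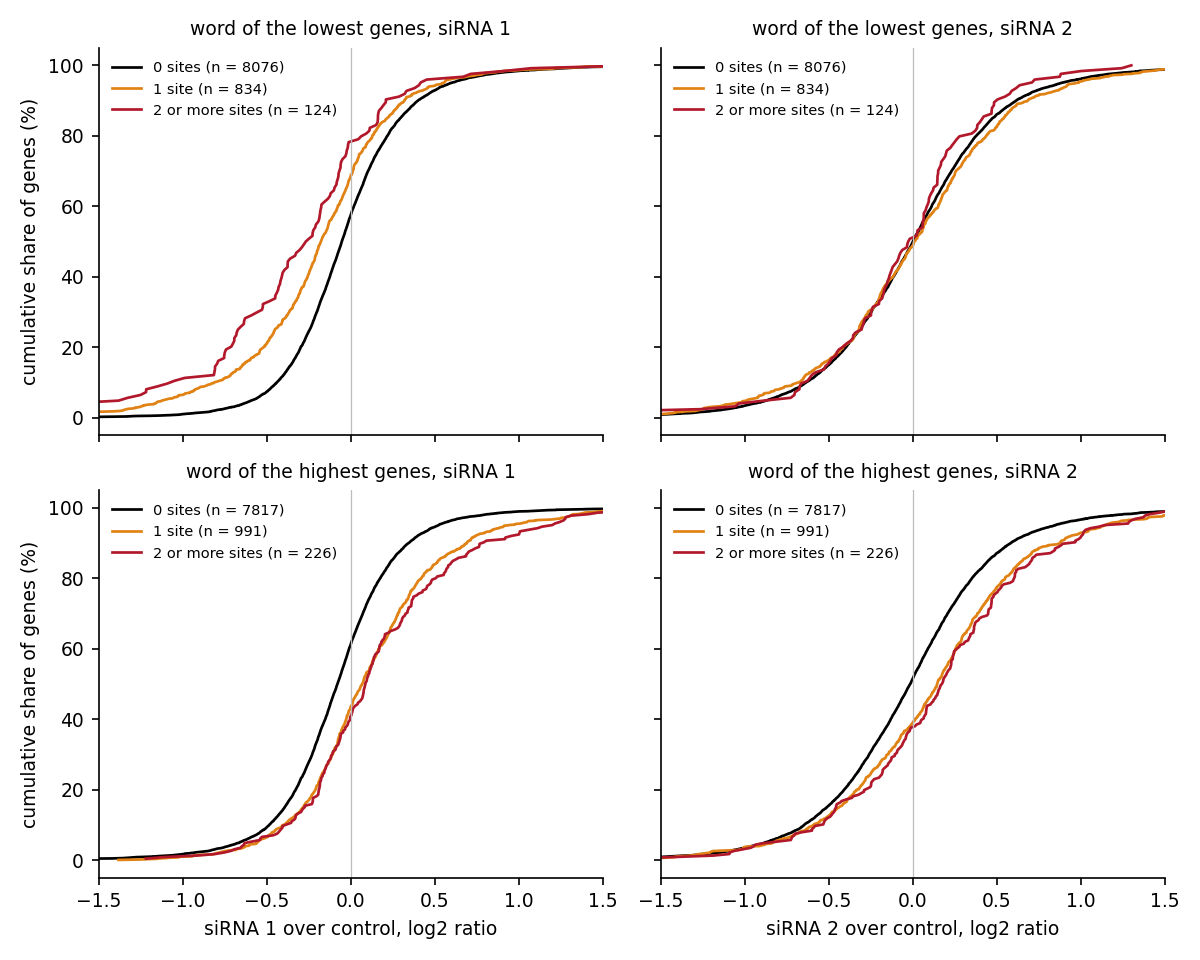
Cumulative share of measured genes with an annotated 3′ UTR (vertical axis, percent) against the log2 ratio to the control (horizontal axis), by number of sites of the lower members' word (top) and of the higher members' word (bottom), for siRNA 1 (left) and siRNA 2 (right). Carriers of the lower members' word are shifted left under siRNA 1, with medians of -0.18 for 1 site and -0.26 for 2 or more against -0.05 for none, and carriers of the higher members' word are shifted right with both siRNAs.

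Where in the mRNA the word lay, and in how long a 3′ UTR, went with the size of the difference. The 576 genes with ACCTAAA in the coding region and not in the 3′ UTR had a median ratio of -0.09, and the 47 with it only in the 5′ UTR of -0.12. The 7453 with it in none of these regions were at -0.05. When genes were divided into 3 classes of equal size by 3′ UTR length, at 660 and 1908 bases, the 37 carriers in the short class had a median of -0.43, against -0.09 for the others. In the middle class the medians were -0.27 and -0.04, and in the long class -0.14 and -0.02. Carriers were thus lower in each class, and the gap was widest where 3′ UTRs were short. These medians, and those by number of sites and by neighbouring base, include the members, which the rule set low. Of the 37 carriers in the short class 16.2% were lower members, against 0.471% of the others there. Medians by class with the members left out were not computed. Of the carriers 3.86% were lower members, against 0.508% of genes without the word.

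The word has a match in the SRSF5 mRNA too. It occurs once in the coding region of SRSF5-201 and in 11 of 19 listed SRSF5 transcripts, and the window is shown because SRSF5 is the intended target of the siRNA.
SRSF5 (chr14:69770513-69770539, plus strand): atgcacaccgACCTAAAttaaatgaag
Such a match is not rare, since 9.18% of all words of 7 bases occur somewhere in that mRNA. Of 2370 mature human miRNAs in RefSeq (GRCh38.p14), 0 pair over bases 2 to 8 with ACCTAAA. Whether the word pairs with the seed of siRNA 1 was not tested, since its sequence is not given in the sources used here.

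On the higher side the word shown is GAATATA, whose carriers over all measured genes had the highest ratios under siRNA 1. It is called the higher members' word here, although it ranked 8 among words by its excess in them. AGATGCT, held by 16 of 33 higher members (48.5%) against 14.3% of measured genes, ranked first, and its carriers differed by 0.01 from other genes under siRNA 1. GAATATA is printed in the 4 carriers farthest above the control, with the word again in capitals.
CDH2 (chr18:27951010-27951036, minus strand): ttgtgtaccaGAATATAaatgatacac
OSTM1 (chr6:108043499-108043525, minus strand): taaacattaaGAATATAaaatctcctc
CCDC9B (chr15:40333185-40333211, minus strand): gtttggactaGAATATAtgaagggctg
TBC1D5 (chr3:17158342-17158368, minus strand): tttaaatcctGAATATAttgtgttttg
Of 33 higher members with an annotated 3′ UTR, 14 (42.4%) held GAATATA, against 1217 of 9034 measured genes (13.5%) and 6 of 78 lower members (7.69%). The higher members also had the longer 3′ UTRs, with a median of 2203 bases, and per kilobase the word occurred 0.237 times in them against 0.0920 over all measured genes. Among genes at least 2-fold above the control under siRNA 2 and within 0.5 of it under siRNA 1, 24 of 167 held it (14.4%), close to the share of all genes. Over all measured genes its carriers stood higher under both siRNAs. They had a median ratio of 0.08 under siRNA 1 and 0.15 under siRNA 2, against -0.08 and -0.02 without it. The difference of 0.15 was the highest of all words under siRNA 1, and that of 0.16 was the second highest under siRNA 2. Both ratios share the 1 control library, so carriers high under both siRNAs and carriers low in that library cannot be told apart. Neither was tested. Carriers had a median siRNA 1 over siRNA 2 difference of -0.05, against -0.07 in the other genes. GAATATA was in 0 of 19 SRSF5 transcripts, and 0 of the 2370 miRNAs pair with it over bases 2 to 8. With siRNA 2 the lowest word was another, GTTACTA, with a difference of -0.26 against -0.01 under siRNA 1. It occurs once in SRSF5-201 and in 14 of 19 SRSF5 transcripts, more of them than ACCTAAA. It was held by 4 of 78 lower members (5.13%), 7 of 33 higher members (21.2%) and 655 of 9034 measured genes (7.25%).

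**Figure D2:**
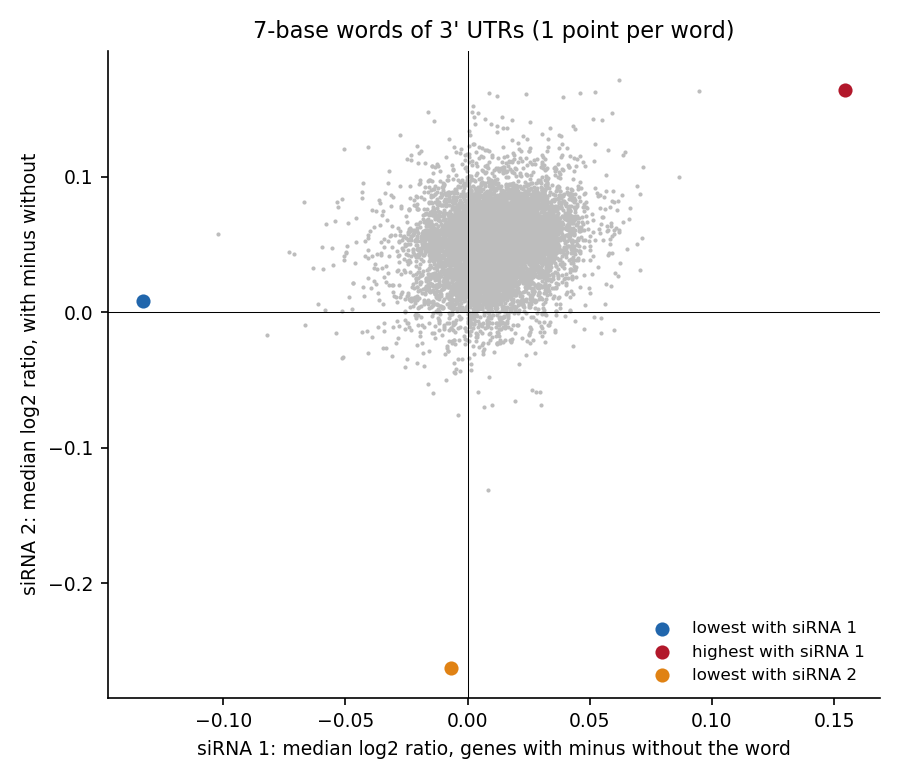
Each point is 1 of 12770 words of 7 bases, placed by the median log2 ratio of genes with the word in the 3′ UTR minus that of genes without it, for siRNA 1 (horizontal axis) and siRNA 2 (vertical axis). The lower members' word lies farthest left (-0.13) near the siRNA 2 zero line, and the next is CCTAAAA (-0.10), not marked. The word lowest under siRNA 2 (-0.26) lies near the siRNA 1 zero line, and the higher members' word lies above zero on both axes (0.15 and 0.16).

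The lower members stood at 17.9% to 49.0% of the control under siRNA 1, with a median of 39.4%, and their ratios under siRNA 2 had a median of -0.05. Those with the word in the 3′ UTR had a median ratio of -1.25 (37 genes) and those without it there of -1.19 (41 genes). Both medians are bounded by the rule at -1. The gene with the lowest ratio lacked the word. CSTB, which encodes the cysteine protease inhibitor cystatin B (chromosome 21, 4 detected transcripts), was at a summed FPKM of 27.2 in the control, 5.13 under siRNA 1 and 29.2 under siRNA 2, a ratio of -2.20 under siRNA 1 (counting SE 0.13). With a pseudocount of 0.1 FPKM its ratio was -2.38, and that of GJA1, which also lacked the word, was lower at -2.43. The next after CSTB by the ratio of the rule carried it at 2 sites. FKBP1A, the prolyl isomerase that binds FK506 and rapamycin (chromosome 20), was at 107, 24.5 and 115 in the same order, a ratio of -2.08 (counting SE 0.13). Its control and siRNA 2 values lay close together and the siRNA 1 value far below both, a pattern that the rule requires of lower members. USP14, a deubiquitinating enzyme of the proteasome and also a carrier of 2 sites, was at 49.96, 12.001 and 52.3 (ratio -1.97).

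**Figure D3:**
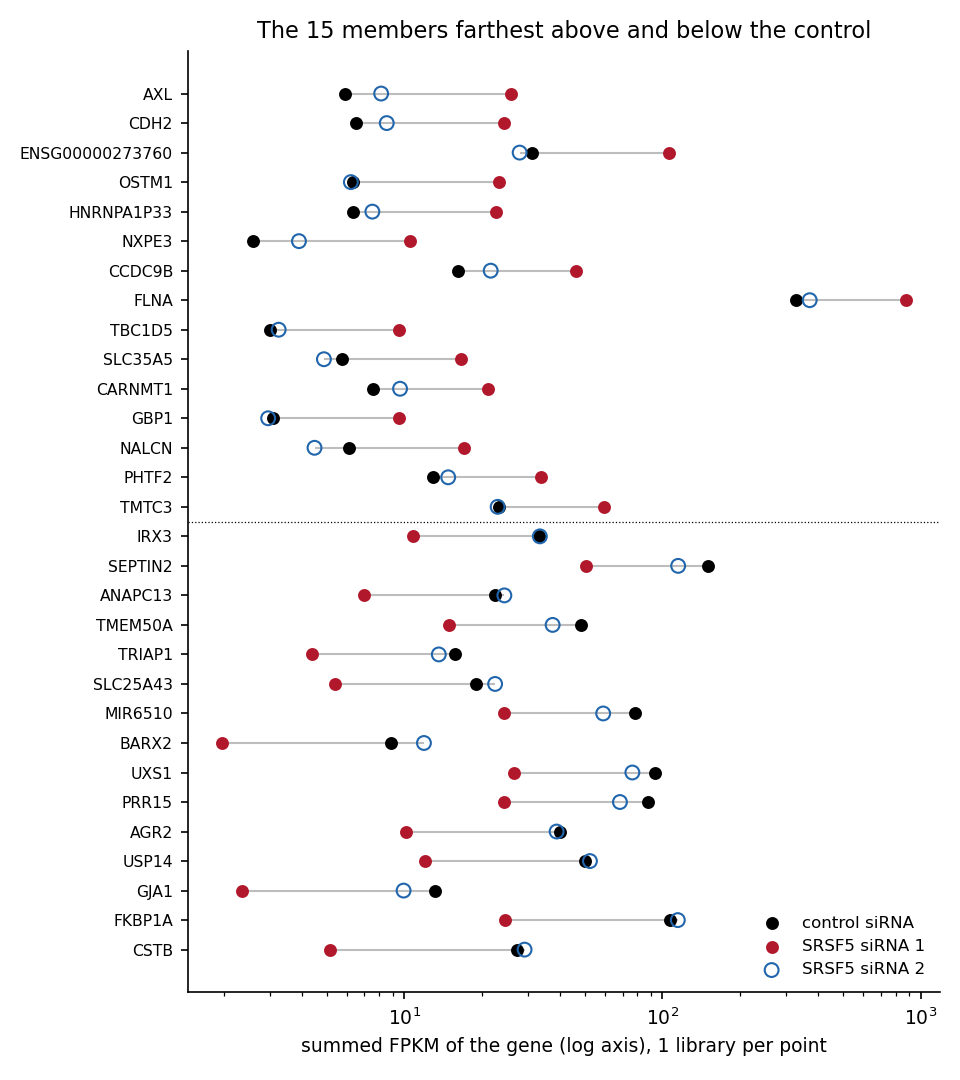
Summed FPKM (horizontal log axis) of the 15 members farthest above and the 15 farthest below the control, with 1 point per library for control siRNA (black), SRSF5 siRNA 1 (red) and SRSF5 siRNA 2 (open blue). The siRNA 1 point stands apart in every row and the control and siRNA 2 points lie nearer each other, both as the rule requires. For FKBP1A they are at 107 and 115 against 24.5, and for NXPE3 at 2.59 and 3.90 against 10.5.

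AGR2, a disulfide isomerase of the endoplasmic reticulum in secretory epithelia, was at 39.9 in the control, 10.1 under siRNA 1 and 38.9 under siRNA 2 (ratio -1.88). SEM1, a small subunit of the proteasome lid, was at 288, 141 and 213 (ratio -1.03), and USP16, a deubiquitinase of histone H2A, at 20.1, 7.82 and 19.4 (-1.26). SEM1 and USP16 carried ACCTAAA and AGR2 did not. Members such as these last ones, outside the rule for naming given with the methods, were chosen after their values were seen.

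GJA1, which encodes the gap junction protein connexin 43, was at 13.1 in the control, 2.35 under siRNA 1 and 9.92 under siRNA 2 (ratios -2.07 and -0.37). GJB2, connexin 26, was at 10.4, 4.63 and 9.70 (-1.02 under siRNA 1), and -0.90 when the highest transcript was taken in place of the sum. Over 24 measured genes of a list of cell junction genes the median was 0.01 under siRNA 1, so the connexins stood apart from most of that list, in which these 2 genes were the members. KRT15, a type I keratin of basal keratinocytes, was at 319, 111 and 276 (ratio -1.52), and its neighbour KRT13, a type I keratin of mucosal epithelia, at 961, 456 and 683 (-1.07). KRT13 had a siRNA 2 ratio of -0.49, close to the limit of the rule. The 16 measured basal keratinocyte genes had a median of 0.30 under siRNA 1 and 0.58 under siRNA 2, opposite in direction to KRT15. None of the 4 genes carried ACCTAAA.

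The EGF receptor and MAPK list held 3 members among 20 measured genes, the most of the 39 lists and all lower, beside 81 lower members among all 9877. ETV5 and ETV4 are ETS transcription factors induced by MAPK signalling. ETV5 was at 31.0 in the control, 10.9 under siRNA 1 and 23.5 under siRNA 2 (ratio -1.43). ETV4 was at 37.7, 14.7 and 31.4 (-1.30), and PHLDA1, a pleckstrin-homology-like protein induced by growth factors, at 14.9, 5.45 and 16.9 (-1.31). Over the 20 measured genes of the list the median was -0.65 under siRNA 1 and 0.05 under siRNA 2, beside -0.06 and 0.01 over all measured genes. Below 0 under siRNA 1 were 14 of the 20. Of measured genes with an annotated 3′ UTR, 57.5% of the 8076 without ACCTAAA were below 0 too. Of the 958 carriers, whose word was picked for low ratios, 69.7% were. The count is therefore not read as an excess. Just outside the rule stood DUSP5, a nuclear ERK phosphatase, at 22.4, 10.8 and 19.8 (-0.99 and -0.17). DUSP6, a cytoplasmic ERK phosphatase, was at 18.6, 9.51 and 42.4 (-0.90 and 1.15), so its values lay on either side of the control. The receptor gene EGFR itself was at 169, 220 and 276. None of the 3 members carried ACCTAAA in the 3′ UTR.

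**Figure D4:**
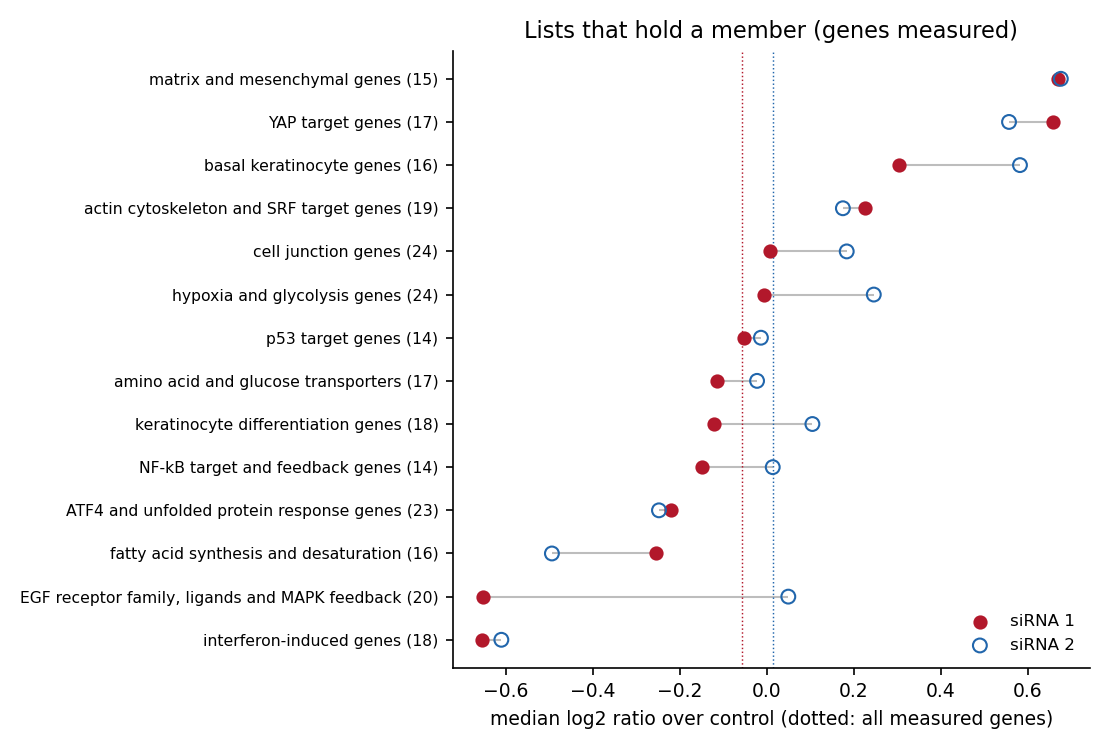
Median log2 ratio to the control of the 14 gene lists that held a member, for siRNA 1 (red) and siRNA 2 (open blue), with the number of measured genes in brackets and dotted lines at the medians of all measured genes (-0.06 and 0.01). The EGF receptor and MAPK list shows the widest gap between the siRNAs, with medians of -0.65 and 0.05.

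UXS1, which makes UDP-xylose for proteoglycan chains, was at 93.8 in the control, 26.6 under siRNA 1 and 76.4 under siRNA 2 (ratio -1.78). PSAT1, an aminotransferase of serine synthesis, was at 101, 39.8 and 91.3 (-1.32). The ATF4 and unfolded protein response list to which PSAT1 belongs had a median of -0.22 over 23 measured genes. ACSL4, which activates arachidonic acid, was at 63.2, 24.8 and 49.2 (-1.31), and SLC16A1, the lactate transporter MCT1, at 43.6, 16.8 and 52.2 (-1.32). PFKFB3, which makes the activator of phosphofructokinase, was at 31.1, 14.5 and 38.0 (-1.05), and -0.73 by its highest transcript. The 24 measured hypoxia and glycolysis genes had a median of -0.01, far from the value of PFKFB3. SLC25A43, a mitochondrial carrier family protein, was at 18.9, 5.38 and 22.5 (-1.64). SLC16A1 and PFKFB3 carried ACCTAAA and UXS1, PSAT1, ACSL4 and SLC25A43 did not.

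BARX2, a homeobox factor, was at 8.88 in the control, 1.96 under siRNA 1 and 11.9 under siRNA 2 (ratio -1.74), without the word. IRX3, an Iroquois homeobox factor, carried the word and was at 33.4, 10.8 and 33.5 (-1.54). NFKB1, the p105 precursor of the NF-kappaB subunit p50, was at 28.6, 12.9 and 25.5 (-1.09). IRF9, the DNA-binding subunit of the interferon-induced complex ISGF3, was at 11.6, 5.12 and 12.6 (-1.04). By the highest transcript, with 1 FPKM added to it, NFKB1 was at -0.82 and IRF9 at -0.55. The 14 detected transcripts of NFKB1 were at 42.5% to 52.5% of the control and the 15 of IRF9 at 38.4% to 58.6%. The counting error of IRF9, which rests on its largest transcript alone, was 0.34. Both genes lay close to the limit of the rule at -1. IRF9 was the single member among 18 measured interferon-induced genes, whose medians were -0.65 under siRNA 1 and -0.61 under siRNA 2. The 14 measured NF-kappaB genes had a median of -0.15.

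ANAPC13, a subunit of the anaphase-promoting complex, was at 22.5 in the control, 6.97 under siRNA 1 and 24.4 under siRNA 2 (ratio -1.56). SEPTIN2, a filament-forming GTPase of cell division, was at 151, 50.6 and 115 (-1.55), and MAD2L1, of the spindle checkpoint, at 37.7, 14.1 and 31.1 (-1.36). All 3 carried ACCTAAA. A list of 31 mitosis and G2/M genes, all measured, had a median of 0.00 under siRNA 1 and held 0 members, where 1.20% of all measured genes were members. TRIAP1, a small mitochondrial protein and p53 target, was at 15.7, 4.39 and 13.6 (-1.63), beside a median of -0.05 over 14 measured p53 targets. TMEM50A, a membrane protein, was at 48.1, 14.9 and 37.5 (-1.62), and PRR15, a proline-rich protein, at 87.8, 24.2 and 68.4 (-1.81). TRIAP1 and TMEM50A carried the word and PRR15 did not.

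The remaining lower members, chosen for mention after their values were seen, had ratios between -1.53 and -1.01. CLIC4, an intracellular chloride channel family protein, was at 41.8 in the control, 13.8 under siRNA 1 and 38.4 under siRNA 2 (-1.53). STC2, the secreted glycoprotein stanniocalcin 2, was at 15.6, 5.24 and 13.5 (-1.41), and KLF3, a transcriptional repressor, at 31.0, 11.8 and 26.0 (-1.33). CPSF3, the endonuclease that cleaves mRNA 3′ ends, was at 53.5, 23.2 and 43.0 (-1.17). These 4 genes carried ACCTAAA, as did THRB, the thyroid hormone receptor beta, at 10.7, 4.39 and 9.97 (-1.12). Among those without the word in the 3′ UTR, GSN, the actin-severing protein gelsolin, was at 352, 173 and 309 (-1.02). TXNIP, the thioredoxin-interacting protein, was at 51.2, 23.5 and 45.7 (-1.09), and PTGES, a prostaglandin E synthase, at 140, 67.6 and 149 (-1.04). MUC16, a membrane mucin of wet epithelia, was at 8.75, 3.27 and 8.40 (-1.19) and held the word at 3 sites in its coding region. Further carriers were COA7, NUP35, POLR3G, PRXL2A, CYP4B1, RDH10, RBM18, PGAP2, AP1AR, FBXL12, TBC1D4, ATP13A3, NCR3LG1, NRBF2 and SLC25A17. Further members without it were MARK2, TCN1, GLTP, ATF2, SIX4, MTM1, GABPB2, CMTM7, TMEM171, CBX6, SLC36A1, ENSG00000257390, CDCA4, FOXQ1 and GPRC5B.

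The higher members stood at 203% to 440% of the control under siRNA 1, with a median ratio of 1.24 and a median of 0.17 under siRNA 2. AXL, a receptor tyrosine kinase for the ligand GAS6 (chromosome 19), led them at 5.91 in the control, 26.0 under siRNA 1 and 8.12 under siRNA 2 (ratios 1.97 and 0.40, counting SE 0.10 for the first). CDH2, which encodes N-cadherin, was at 6.51, 24.2 and 8.54 (1.75 and 0.35). FLNA, the actin crosslinker filamin A, was at 328, 875 and 372 (1.41 and 0.18), with a counting error of 0.02. In AXL and CDH2 the siRNA 2 value lay above the control too, within the limit of the rule. F3, tissue factor, was at 135, 300 and 187 (1.14 and 0.46).

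These genes belong to lists that stood above the control with both siRNAs. The 17 measured YAP target genes, to which AXL and F3 belong, had medians of 0.66 under siRNA 1 and 0.56 under siRNA 2. The 15 measured matrix and mesenchymal genes, with CDH2, had medians of 0.67 and 0.68, and the 19 measured actin and SRF target genes, with FLNA, of 0.23 and 0.18. These medians include the members. PLAU, the urokinase plasminogen activator, was at 72.7, 152 and 63.9 (1.05 and -0.18), and ITGA4, the integrin alpha 4 chain, at 17.4, 38.2 and 21.04 (1.09 and 0.26).

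OSTM1, the partner subunit of a lysosomal chloride transporter, was at 6.34 in the control, 23.3 under siRNA 1 and 6.20 under siRNA 2 (ratio 1.72). The 23 measured lysosome and autophagy genes of a list without a member had a median of 0.17. TBC1D5, a Rab7 GTPase-activating protein, was at 3.01, 9.53 and 3.26 (1.39). By its highest transcript the ratio was 0.65, where the 1 FPKM added weighs more on 1 low transcript. Its 25 detected transcripts were at 265% to 404% of the control. NALCN, a sodium leak channel, was at 6.10, 17.1 and 4.48 (1.35), and SLC35A5, of the nucleotide sugar transporter family, at 5.70, 16.6 and 4.88 (1.39). PHTF2, a membrane protein, was at 12.9, 33.7 and 14.8 (1.32), and TMTC3, a mannosyltransferase of cadherins, at 23.3, 59.3 and 23.0 (1.31). GBP1, an interferon-inducible GTPase, was at 3.10, 9.49 and 2.96 (1.35), opposite in direction to the median of the interferon list. By the highest transcript, again with 1 FPKM added, PHTF2 was at 0.89 and GBP1 at 0.91. The detected transcripts of PHTF2 were at 228% to 364% of the control and those of GBP1 at 156% to 494%. OSTM1, TBC1D5, SLC35A5, PHTF2 and TMTC3 carried GAATATA.

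The other higher members among the leading 15 included uncharacterized and noncoding genes. CARNMT1, the carnosine methyltransferase, was at 7.55 in the control, 21.1 under siRNA 1 and 9.62 under siRNA 2 (ratio 1.37). NXPE3 was at 2.59, 10.5 and 3.90 (1.68), and CCDC9B at 16.2, 46.2 and 21.6 (1.46). ENSG00000273760, a gene without a coding transcript, was at 31.1, 106 and 27.96 (1.73), and its span overlaps that of another unnamed gene, ENSG00000276850, with a ratio of 1.36. HNRNPA1P33, a pseudogene of HNRNPA1, was at 6.33, 22.6 and 7.51 (1.69). How reads that match several places were assigned is not given in the sources used here, so the value of this pseudogene is uncertain. MIR205HG, the host of the epithelial microRNA miR-205, was at 153, 323 and 112 (1.08 and -0.45). The entry for MIR205 inside it stood just outside the rule at 83.4, 176 and 58.5 (1.07 and -0.503).

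Further higher members, also picked with their values in view, had ratios between 1.04 and 1.28. IL7R, the interleukin 7 receptor, was at 18.8 in the control, 40.6 under siRNA 1 and 21.2 under siRNA 2 (1.07). CDKN2B, the cyclin-dependent kinase inhibitor p15, was at 7.76, 19.4 and 9.14 (1.22), and IL1RAP, the shared chain of interleukin 1 receptors, at 10.7, 25.2 and 14.8 (1.16). ATP6AP2, an accessory subunit of the vacuolar proton pump, was at 19.6, 48.1 and 18.9 (1.25) and carried GAATATA. APOL2, WASHC4 and MAN2B2 carried it in the 3′ UTR too, and UNC13D, ATP9A, TMEM40, HINT3, ADGRL2 and NIPSNAP2 did not. SNHG19 is a noncoding host of small nucleolar RNA.

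**Figure D5:**
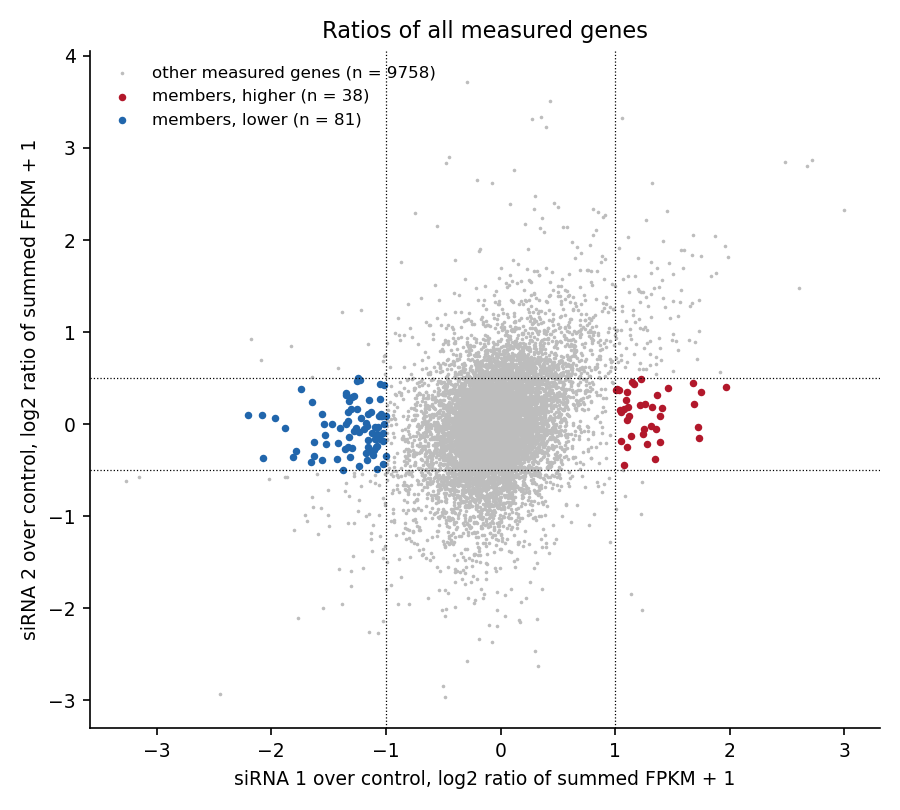
Log2 ratio to the control of each of 9877 measured genes under siRNA 1 (horizontal axis) and siRNA 2 (vertical axis), with dotted lines at the limits of the rule. The 38 higher members (red) and 81 lower members (blue) fill the outer bands between -0.5 and 0.5 on the siRNA 2 axis, and the lower band holds 53.3% of all genes at least 2-fold lower under siRNA 1 against 24.7% on the higher side. Most measured genes lie between these siRNA 2 limits, with quartiles of -0.31 and 0.32.

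How siRNA 2 stood for the genes 2-fold off under siRNA 1 differed between the sides. Of the 154 genes above the control by 2-fold under siRNA 1, 71 were at least 2-fold higher under siRNA 2 as well (46.1%), 38 were 0.5 to 1 above, 38 were members (24.7%) and 7 were on the other side. Of the 152 lower genes 27 were at least 2-fold lower with both (17.8%), 32 were 0.5 to 1 below, 81 were members (53.3%) and 12 were on the other side. Members were thus the largest class on the lower side and not on the higher. Over all measured genes the quartiles of the siRNA 2 ratio were -0.31 and 0.32, so most genes lay within 0.5 of the control. The member shares are therefore not read as an excess. Both siRNAs share the control library, so the counts of genes off the same way under both hold any deviation of that library.

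The rule drew a line through a continuum of values. Just inside it were TACC1 and HACD2 on the higher side, at 1.01 each, and PALB2 (-1.002) and VAX2 (-1.003) on the lower side. Just outside stood CEP97 (0.98), SLC16A3 (0.98), CMTM8 (-0.995) and DUSP5 (-0.99). At the siRNA 2 limit PALMD (0.496) and ZNF644 (-0.49) were inside, and MIR205 (-0.503) and RCOR1 (0.52) outside. RCOR1, a corepressor of REST, was at 54.0 in the control, 16.6 under siRNA 1 and 77.6 under siRNA 2, so genes of as large a ratio were left out. By the highest transcript with 1 FPKM added, the ratios of TACC1, VAX2, PALMD and PALB2 were below 2-fold, the last at -0.999. With nothing added, every detected transcript of VAX2 and PALMD was at 44.5% of the control or less.

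The detected transcripts of a member nearly always lay on the same side of the control. All 352 detected transcripts of the higher members were above the control under siRNA 1, and 656 of 658 of the lower members were below it. The exceptions were 1 transcript each of SEM1 and KCTD9. Isoforms of a gene share reads in these values, so these counts are not separate measurements. The rule was applied to the sum of the same transcripts, so their side was largely set by the selection. The 4 detected CSTB transcripts were at 18.4% to 20.7% of the control and the 11 of FKBP1A at 21.3% to 26.4%.

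Some members lie on top of or beside each other and may hold the same reads. MIR6510 (78.6 in the control, 24.2 under siRNA 1 and 58.9 under siRNA 2) lies inside KRT15, which lies 8040 bases from KRT13 on chromosome 17. RNA5SP392 lies inside CCDC9B, MIR5703 overlaps AGFG1, ENSG00000274322 overlaps FKBP1A, and VAX2 overlaps ATP6V1B1, each pair on the same strand and in the same direction. CMSS1 and FILIP1L overlap on opposite strands of chromosome 3 and differed in direction, at -1.40 and 1.11. CAAP1 and IFT74 on chromosome 9 are 54236 bases apart, both lower and both carriers of ACCTAAA. Members were found on every autosome and the X chromosome, at 0.513% of the measured genes of chromosome 19 to 2.48% of those of chromosome 3.

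Most members had an annotated coding transcript, 33 of 38 higher (86.8%) and 78 of 81 lower (96.3%), against 92.2% of measured genes. The GC content of the largest transcript had a median of 44.4% in the higher and 45.8% in the lower members, against 48.6%. The counting error on the siRNA 1 ratio had a median of 0.11 in the higher and 0.12 in the lower members, and it was above 0.25 in 2 and 8 of them. MIR5703 had the largest, 0.60 on a ratio of -1.28. These errors cover counting only, and the spread between cultures is unknown.

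Members were 1.20% of measured genes, so lists of this size often hold none, and those with 0 members are given here for their medians alone. They include 13 measured SR protein genes, with a median of -0.08 under siRNA 1, 28 other splicing regulators (-0.08), 25 sterol synthesis genes (-0.35), 30 S-phase genes (-0.13), 36 nuclear oxidative phosphorylation genes (-0.23), 39 ribosomal protein genes (-0.18) and 12 genes of the small RNA silencing machinery (-0.03). Their medians under siRNA 2 were -0.04, 0.10, -0.91, -0.28, -0.30, 0.26 and -0.23 in that order.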

How the data were processed

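RNA was taken from HaCaT cells and made into libraries with a SMARTer kit, per the labels' protocols. The authors deposited 1 table per library, which per the file headers lists FPKM for each transcript beside its exons, strand and length. Builds named in the submitters' processing notes are GRCh38.p12, GRCm38 and mm10, with no role stated. Neither aligner nor counter is given in the sources used here. FPKM were summed per gene over transcripts on chromosomes with Python 3.11.15, pandas 2.3.3 and numpy 2.4.6. FPKM times length was a whole multiple of 1 step per library in 100% of the values checked (tolerance 0.05). A run of 100 such steps is called a read equivalent. FOXQ1, with 1 transcript, had 1481 in the control, 483 under siRNA 1 and 1731 under siRNA 2. SNHG19, also with 1 transcript, had 69, 150 and 72.33 in that order. What a step stands for was not tested. The largest transcripts held 18327245, 17710660 and 15867887 read equivalents in the control, siRNA 1 and siRNA 2 libraries, and counting standard errors come from them. Summed levels depend on which transcripts are listed and on their lengths, so they are not compared between genes. The code was checked on simulated data, which does not bear on the choice of members.

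The members and the 39 gene lists were chosen with earlier results of these data known. Genes named by rule were the 15 members farthest from the control on each side with at least 20 read equivalents, members in a list, the nearest genes at each limit, and SRSF5. Words were searched on the transcript strand alone, overlaps included, in the 3′ UTR of the coding transcript with the most bases, from GENCODE release 29. The files' coordinates and that release are both on GRCh38. Alternatives were another pseudocount, filters, gene levels, centring, siRNA 2 limits and, chosen after seeing the data, other 3′ UTRs for the words.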

Additional observations from a re-analysis of the deposited data

How the results depend on the processing

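The number of members depends on how the gene level and the filter are set. The 38 higher members became 16 with a mean summed FPKM of at least 20, 72 with no filter, 19 with the mean over transcripts, 23 with the highest transcript and 23 with a siRNA 2 limit of 0.25. The 81 lower members became 41, 93, 43, 51 and 46 under the same settings. With a pseudocount of 0.1 FPKM they were 38 and 91, and with ratios centred on the median 41 and 66. Of the 38 higher members 21 were kept with the highest transcript, and of the 81 lower members 45.

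Over 49 named genes no ratio changed sign under 4 alternatives. With the highest transcript 11 were below 2-fold, with the mean over transcripts 18, with centring 5 and with a pseudocount of 0.1 FPKM 0. The counts for the highest transcript and the mean hold the larger weight of the added 1 FPKM too. The share of lower members with ACCTAAA ranged from 43.6% to 52.5% under 4 alternatives chosen after seeing the data, and that of higher members with GAATATA from 41.2% to 50.0%. No replicate could be left out. No paired analysis was possible because each group has 1 library. A median counting error of 0.11 to 0.12 is small beside a ratio of 1, but it does not cover differences between cultures.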
